A study of Mus musculus with 18 samples.

Results

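Nasal mucosa of mice given the compound C10 was compared with the mucosa of both groups that did not receive it. The members were chosen by group label alone: the 6 C10 libraries were set against the mean of the 6 CON and the 6 CRS libraries, with each of those groups at equal weight, so all 18 of the 18 libraries of the study enter the comparison and every gene of the count table was considered. Of 54532 genes in the table, 18291 had enough counts to be tested. CRS mice received papain, a plant protease, into the nose (20 µg in 20 µL, on days 0 to 2 and 7 to 11) as a model of chronic rhinosinusitis, in which nose and sinuses stay inflamed. The protocol gives C10 to CRS mice, so the C10 group is taken to have had the same papain, plus C10 at 10 mg/mL in 10 µL per side, daily over 10 days that began with the first papain dose. The series title calls the compound an APE1 inhibitor. The labels do not state what CON mice received, whether CRS mice had a vehicle, and the strain, age, sex and time of day. They do not say that each library is 1 mouse, so the spread behind each p-value is that between libraries and may be technical. CON and C10 therefore differ in papain as well as C10. The contrast against the mean of CON and CRS asks which genes differed in C10 from the average of the 2 groups. A gene can pass it through a large difference from 1 of them alone.

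APE1, encoded by Apex1, cuts DNA at sites that have lost a base, and through a separate redox activity it changes how transcription factors bind DNA. The lysosome is the acidic compartment in which cells break down proteins, lipids and sugars taken up or delivered by autophagy. Its hydrolases, membrane proteins and proton pump are encoded by genes that share an E-box motif, read by the factors TFEB and TFE3, which folliculin and the Rag GTPases keep in the cytoplasm when nutrients are plentiful. The nasal lining holds respiratory epithelium, which makes mucus, and olfactory epithelium, where basal progenitors replace sensory neurons throughout life.

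Libraries were of similar depth, from 15883573 to 18433866 counts. Olfactory neurons were part of every sample: Omp, the marker of mature olfactory neurons, ran from 1241 to 3490 CPM (read counts scaled to library size, with edgeR's trimmed-mean factors), with 1605 to 3026 CPM in C10. Ciliated (Foxj1, 114 to 244 CPM) and basal cell (Krt5, 118 to 211 CPM) markers were present in each library, while the club cell marker Scgb1a1 had 0 counts in 13 of 18. The first principal component, with 32.7% of the variance, separated single CRS libraries rather than groups: on it CRS 2 (-80.9) and CRS 5 (-59.1) stood at one end and CRS 1 (64.6) at the other, with C10 from -32.0 to 31.8 between them. Values without CRS 2 and CRS 5 are given for the counts of calls and for several gene lists. The samples are bulk tissue, so fewer cells of a type and less RNA per cell cannot be told apart.

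At an edgeR adjusted p under 0.05, 47 of the 18291 genes differed (0.257%), 30 lower in C10 (0.164%) and 17 higher (0.0929%). By log2 fold change, Gpnmb, F7 and Trem2 were the lowest and Olfr988, Olfr211 and Neurod1 the highest. By p, Uap1l1, Dpp7 and Fuca2 came first among the genes called lower and Il33, Tff2 and Dbp among those called higher. The 30 lower genes include 11 of the lysosomal lists described below. All 47 lay on the same side of CON and of CRS, each with an unadjusted p under 0.05 in both pairwise comparisons. Of all genes 13.1% had such a p against CON and 13.2% against CRS. These shares count either direction in each comparison alone, so they are not a matched reference. The pairwise comparisons share the C10 libraries, and the contrast that selected the 47 is their mean in the same fit. Passing at an unadjusted p in both pairwise comparisons was therefore largely set by the selection. Uap1l1, Il33, Dpp7 and Gpnmb also passed after adjustment in both (0.159% of all genes against CON, 0.082% against CRS), 20 passed in neither pairwise comparison alone, and none of the 47 was called between CRS and CON, where 1 gene in all was called (0.00547%) and 12 of the 47 had an unadjusted p under 0.05 (14% of all genes). In 22 of the 47 genes (16 lower, 6 higher) the 6 C10 libraries lay beyond all 12 others, as they did for 35 of all genes tested (0.191%; 0.109% below and 0.082% above). An unadjusted p under 0.05 was found for 2345 genes (12.8%), 1198 higher (6.55%) and 1147 lower (6.27%). Of the 47, 18 overlap another annotated gene, 12 of them a coding one, and without strand their reads cannot be told apart.

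**Figure D1:**
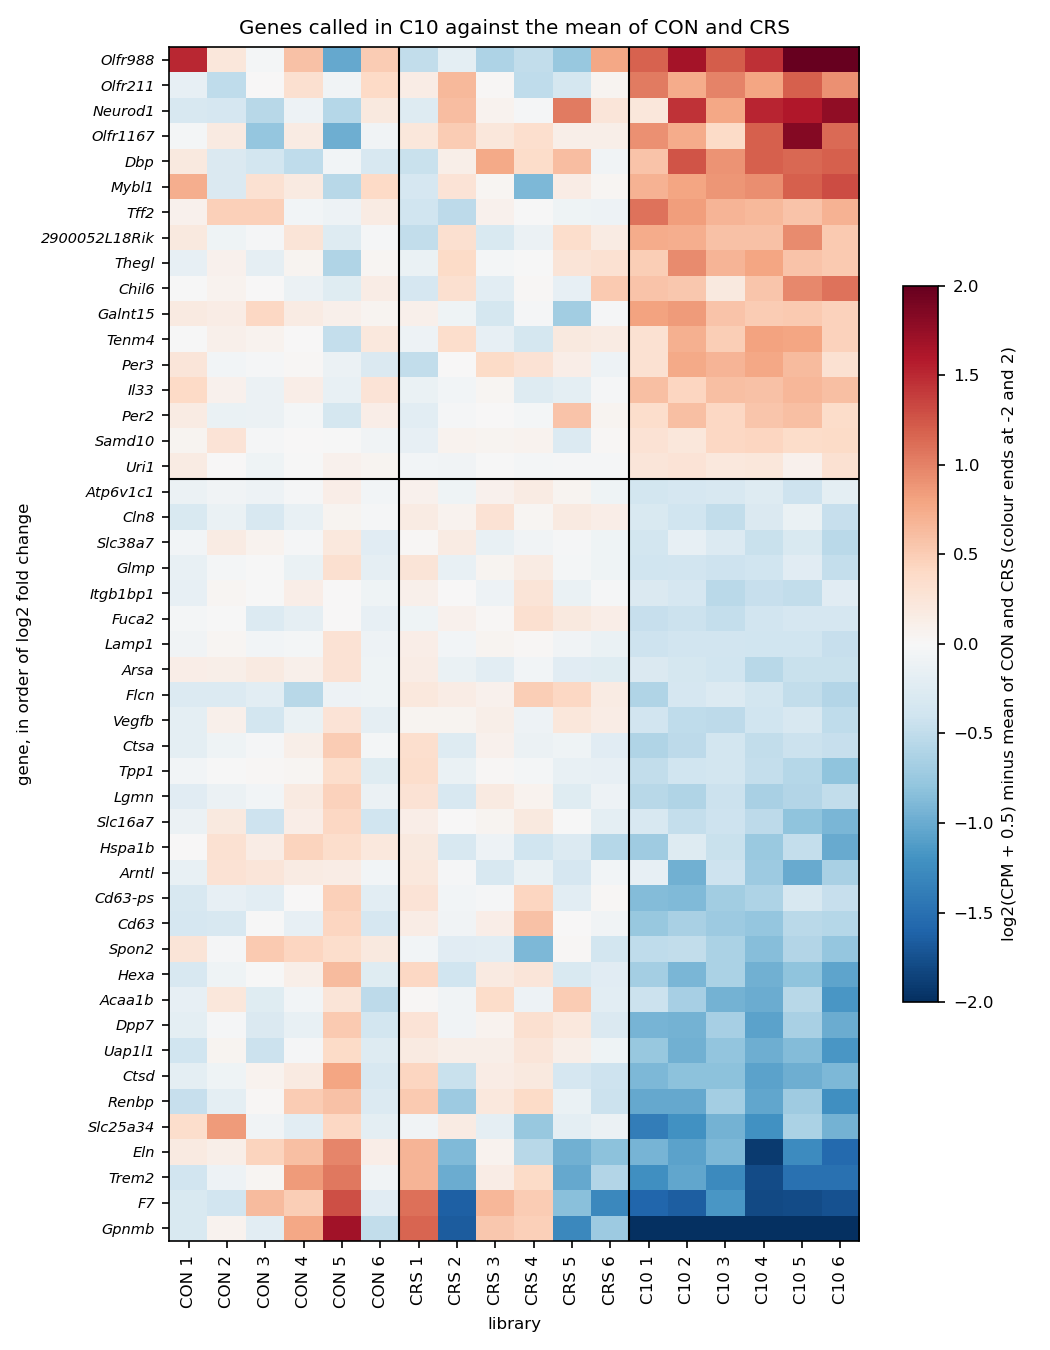
Heat map of the 47 called genes (vertical axis, ordered by log2 fold change) in the 18 libraries (horizontal axis), with colour for log2(CPM + 0.5) minus the mean of CON and CRS. Black lines separate groups and directions. The 6 C10 columns are red over the 17 genes called higher and blue over the 30 called lower, while CON and CRS columns vary around white. CRS 2, CRS 5 and CRS 6 are blue too for F7, Eln and Gpnmb, though not as low as C10 for Gpnmb.

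With each of the 18 libraries left out in turn, Uap1l1, Il33, Tff2, Dpp7, Dbp, Fuca2 and Gpnmb passed every time, and the other 40 missed the threshold in 1 to 15 of the 18 fits, while every called gene kept its direction. Without C10 2, 39 of the 47 missed it and 3 genes higher and 5 lower were called. Without C10 4, 39 missed it and 4 higher and 4 lower were called. Without CRS 2, 53 genes were called higher and 74 lower.

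The gene with the smallest p was Uap1l1 (chr2:25359889-25365682, minus strand, mm10), which encodes a relative of the enzyme that makes UDP-N-acetylglucosamine. It ran from 26.5 to 35.4 CPM in C10 (median 31.7), from 44.5 to 78.5 in CON (median 54.5) and from 56.9 to 71.2 in CRS (median 65.5). No C10 library reached the lowest of the other 12, and the gene had a log2 fold change of -0.94 ± 0.11 (SE; edgeR adjusted p = 0.00104). Its neighbour Dpp7 (chr2:25352276-25356359, minus strand), a dipeptidyl peptidase of lysosomes and vesicles, ran from 11.2 to 15.2 CPM in C10 (median 12.4), from 18.7 to 35.0 in CON (median 21.3) and from 19.7 to 30.2 in CRS (median 26.8), again without overlap, with a log2 fold change of -0.91 ± 0.13 (SE; edgeR adjusted p = 0.00601).

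Most genes of the lysosome had lower values in C10. Of 101 genes tested in the 3 lists of lysosomal hydrolases, lysosomal membrane proteins and V-ATPase subunits, 11 were called lower and 0 higher, beside 0.164% and 0.0929% of all genes. The lists were chosen with earlier results of these data known, so values of all genes beside them are a description and not an independent test. A total of 92 of the 101 had a log2 fold change below 0, against 48.5% of all genes, and the median was -0.26 (all genes 0.01). Counting the called ones, 62 were below 0 at an unadjusted p under 0.05, as were 6.27% of all genes. Against CON and against CRS the medians were -0.43 and -0.27 for hydrolases, -0.16 and -0.19 for membrane proteins and -0.13 and -0.31 for V-ATPase subunits. For CRS against CON these 3 lists had -0.14, -0.03 and 0.18. Over all 101 genes the median was -0.27 against CON and -0.27 against CRS, while that of CRS against CON was -0.06. The number called ranged from 2 (without C10 2 or without C10 4) to 16 (without CRS 2) over the leave-one-out fits, and was 27 without CRS 2 and CRS 5, 39 with the mature olfactory neuron level as a covariate, 5 with the replicate number as a block and 0 with a 1.2-fold minimum. With the block Lamp1, Ctsd, Cd63, Atp6v1c1, Lgmn and Ctsa missed the threshold.

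**Figure D2:**
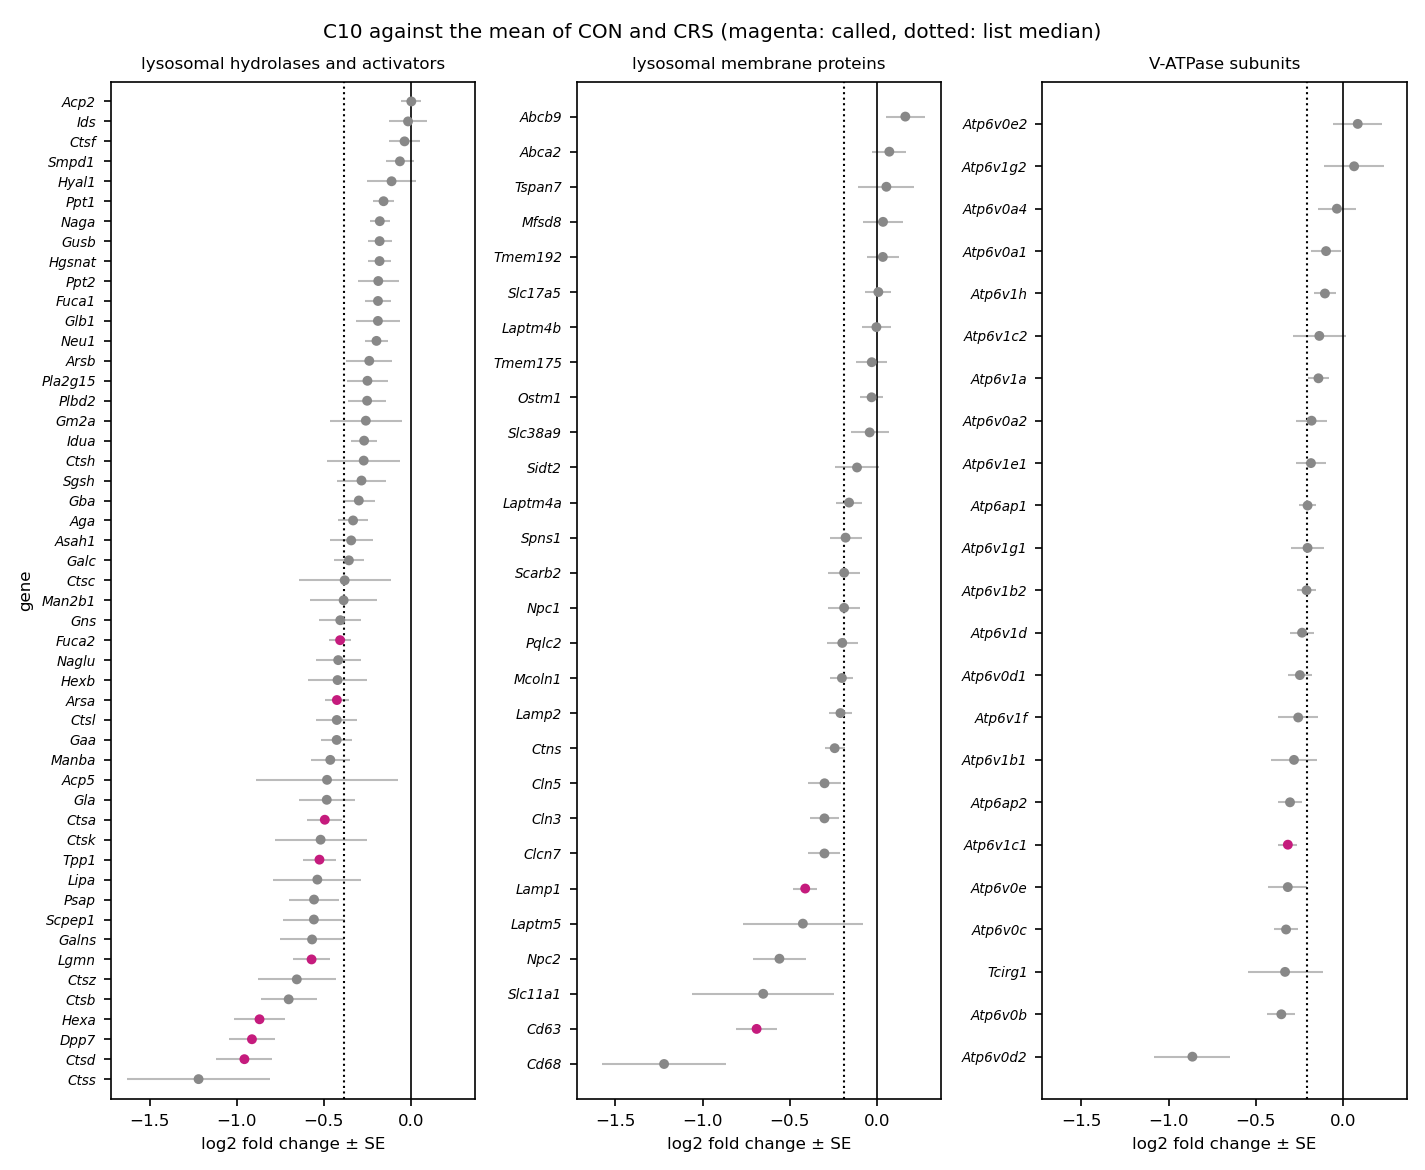
Log2 fold change of C10 against the mean of CON and CRS (horizontal axis, points with SE as bars) for each tested gene (vertical axis) of 3 lysosomal lists; magenta points were called and the dotted line is the list's median. Points lie left of 0 for 49 of 50 hydrolases, 22 of 28 membrane proteins and 21 of 23 V-ATPase subunits.

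Among hydrolases and their activators, 8 of 50 were called lower, 0 higher, and the list's median was -0.38. Ctsd, the aspartic protease cathepsin D, ran from 306 to 365 CPM in C10 (median 346), from 515 to 1108 in CON (median 639) and from 474 to 869 in CRS (median 611). The highest C10 library lay below the lowest of the other 12, with a log2 fold change of -0.96 ± 0.16 (SE; edgeR adjusted p = 0.0162). Hexa, the alpha subunit of beta-hexosaminidase, which degrades gangliosides, ran from 73.1 to 98.2 CPM in C10 (median 83.5), from 122 to 236 in CON (median 147) and from 115 to 203 in CRS (median 151), also without overlap, and had a log2 fold change of -0.87 ± 0.15 (SE; edgeR adjusted p = 0.0162). Arsa, the arylsulfatase that acts on sulfatide, was at 17.6 to 21.1 CPM in C10 against 21.7 to 31.9 in the other 12 libraries, with a log2 fold change of -0.43 ± 0.07 (SE; edgeR adjusted p = 0.0162). Fuca2, a fucosidase, was at 105 to 117 CPM in C10 against 121 to 183, with a log2 fold change of -0.41 ± 0.06 (SE; edgeR adjusted p = 0.0108). C10 lay below every other library for both. The remaining called hydrolases, not named by the rule for named genes, were Tpp1, which removes tripeptides (-0.53 ± 0.09; edgeR adjusted p = 0.0259), the protease legumain, Lgmn (-0.57 ± 0.10; edgeR adjusted p = 0.0293), and Ctsa, which protects beta-galactosidase and neuraminidase (-0.50 ± 0.10; edgeR adjusted p = 0.0454). C10 did not overlap the other groups in any of the 8. Counts of Hexa, Ctsa and Arsa could include reads of genes that overlap them on the other strand, since the counting is not stated to use strand. Counts of Ctsd could include reads of Gm49369, which overlaps it on the same strand. Acp2, Ids, Ctsf and Smpd1 had values of 0.00 to -0.06, and Ctss, the cathepsin of antigen-presenting cells, had the lowest value of the list without passing (-1.22 ± 0.41; edgeR adjusted p = 0.213).

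In the membrane of the lysosome, Lamp1, among its most abundant glycoproteins, ran from 549 to 584 CPM in C10 (median 575), from 704 to 928 in CON (median 733) and from 689 to 834 in CRS (median 751). The spread within C10 was narrow and the groups did not overlap, with a log2 fold change of -0.41 ± 0.07 (SE; edgeR adjusted p = 0.0162). Counts of Lamp1 could include reads of Grtp1, which overlaps it on the other strand. Cd63, a tetraspanin of late endosomes and lysosomes, ran from 177 to 206 CPM in C10 (median 187), from 239.6 to 409 in CON (median 255) and from 286 to 452 in CRS (median 316), without overlap, and had a log2 fold change of -0.69 ± 0.12 (SE; edgeR adjusted p = 0.0176). Reads of Cd63 may be shared with its processed copy Cd63-ps, which was called too (-0.66). These were 2 of 28 members called; Lamp2 had -0.21 ± 0.07, Npc2, which hands cholesterol to Npc1, -0.56 ± 0.15, and Mcoln1, the calcium channel, -0.20 ± 0.07, none passing the adjustment. Of the V-ATPase, the proton pump, Atp6v1c1 was the 1 subunit of 23 called: it ran from 47.2 to 54.9 CPM in C10 (median 50.1), from 58.3 to 69.1 in CON (median 60.4) and from 59.4 to 70.4 in CRS (median 66.0), without overlap, with a log2 fold change of -0.32 ± 0.05 (SE; edgeR adjusted p = 0.0176). Glmp, a lysosomal membrane glycoprotein (-0.39), Slc38a7, which exports glutamine from lysosomes (-0.36), and Cln8, a protein of the endoplasmic reticulum that sends lysosomal enzymes onward (-0.35), were called lower and are in none of the lists. Without C10 4 the edgeR adjusted p rose to 0.0543 for Lamp1, 0.0654 for Arsa and 0.0666 for Ctsd and Hexa, and without C10 2 it was 0.0511 for these 4 genes.

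RefSeq windows from 250 bases before to 50 after a start site (GRCm38.p6, the same assembly as mm10) were searched on both strands for the E-box CACGTG and for its longer form TCACGTGA, the core of the lysosomal motif. A window was found for 13073 of the tested genes. CACGTG was in 10.5% of them and TCACGTGA, each of which holds a CACGTG, in 1.84%. Of the 11 lysosomal genes called lower, 10 had a window, and 6 of these (Arsa, Ctsa, Ctsd, Dpp7, Lamp1 and Lgmn) held CACGTG, 3 of them (Ctsa, Ctsd and Dpp7) in the longer form. Across the 3 lists 20 of 80 genes held CACGTG and 10 held TCACGTGA. CACGTG was not particular to them: 5 of 16 circadian clock genes with a window held it (31.2%), and 0 held TCACGTGA. Stretches upstream of the start site are shown for 4 of the called genes named above, picked because their window holds CACGTG there. Hexa, Fuca2, Cd63 and Tpp1, also called lower, had windows without it. Capitals mark CACGTG, and each stretch reads 5′ to 3′ on the gene's strand.
Dpp7: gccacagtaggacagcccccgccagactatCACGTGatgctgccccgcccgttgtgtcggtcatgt
Lamp1: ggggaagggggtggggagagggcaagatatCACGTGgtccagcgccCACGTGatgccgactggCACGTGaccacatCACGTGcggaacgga
Arsa: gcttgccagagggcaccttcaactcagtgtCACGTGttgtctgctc
Ctsd: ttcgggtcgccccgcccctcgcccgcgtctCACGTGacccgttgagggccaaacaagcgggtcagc
They lie at chr2:25356370-25356435 (minus strand) for Dpp7, chr8:13159070-13159160 (plus) for Lamp1, chr15:89477425-89477470 (minus) for Arsa and chr7:142387890-142387955 (minus) for Ctsd. Ctsd has another CACGTG, not within the longer form, 245 bases before its start site (chr7:142388037-142388077, not shown). The Lamp1 stretch holds 4 copies within 61 bases of its start site. A match describes letters in a window and is not a measured binding site.

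Gpnmb, a membrane glycoprotein of lipid-laden macrophages that follows lysosomal stress, had the largest fall of all called genes (chr6:49036546-49070929, plus strand, mm10). It ran from 16.7 to 77.3 CPM in C10 (median 30.8), from 249 to 1115 in CON (median 333) and from 110.1 to 787 in CRS (median 349). All C10 libraries lay below all others even though each group spread several-fold, and the log2 fold change was -3.48 ± 0.54 (SE; edgeR adjusted p = 0.0108), a fold of 11.2. Trem2, a lipid receptor of macrophages, ran from 7.02 to 12.2 CPM in C10 (median 9.57), from 19.5 to 53.6 in CON (median 25.3) and from 12.4 to 41.3 in CRS (median 22.7), with a log2 fold change of -1.54 ± 0.29 (SE; edgeR adjusted p = 0.0293). Its highest C10 library, at 12.2 CPM, lay just under its lowest CRS library, at 12.4 CPM. With Ctsd, these were 3 called genes among 18 tested of the lipid-associated macrophage list, 17 of which were below 0, with a median of -0.70. Mmp12, the macrophage elastase (-2.33 ± 0.58; edgeR adjusted p = 0.0955), Fabp4, a fatty acid carrier (-1.74 ± 0.44; edgeR adjusted p = 0.0991), and Spp1, osteopontin (-1.32 ± 0.43; edgeR adjusted p = 0.2), did not pass. Trem2 missed the threshold without any 1 of the 6 C10 libraries, CON 4 or CRS 3 (highest edgeR adjusted p 0.113, without C10 4) and Gpnmb did not (highest 0.0475).

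Markers of macrophages and dendritic cells were lower in C10 as well, without a call: 0 of 16 tested passed, 15 were below 0 and the median was -0.46. These markers had a median of -0.67 against CON and -0.24 against CRS, and of -0.40 for CRS against CON. Their summed level was 536 to 1045 CPM in C10, 715 to 1627 CPM in CON and 304 to 1650 CPM in CRS, and Csf1r, Adgre1 and C1qa were above 0 in every library. On the mean of log2 CPM over these markers, C10 1 (5.11) and C10 3 (5.25) lay within the CON range of 4.90 to 5.85, and CRS 2 (3.65) and CRS 5 (4.12) lay below all C10 libraries (4.28 to 5.25). CRS 2 and CRS 5 had 110.1 and 142 CPM of Gpnmb, above the highest C10 value of 77.3, and 474 and 508 CPM of Ctsd, above the highest C10 value of 365. Over whole lists they mostly lay within the C10 range of mean log2 CPM. They had 5.97 and 5.99 for hydrolases (C10 5.86 to 6.14) and 5.96 and 5.98 for lysosomal membrane proteins (5.86 to 6.03). For lipid-associated macrophage genes they had 5.78 and 5.97 (5.37 to 6.03). For V-ATPase subunits they lay above C10, at 6.47 and 6.67 (highest C10 6.33). The mean of the macrophage and dendritic cell markers was then used as a covariate, without the lysosomal Cd68 and without Itgax. With this alternative, added after the data were seen, the log2 fold change was -2.88 for Gpnmb and -0.77 for Ctsd. All 47 genes stayed called, and 26 of the 101 lysosomal genes were called. In that fit medians were nearer 0, at -0.21 for hydrolases, -0.10 for lysosomal membrane proteins and -0.44 for lipid-associated macrophage genes, while that of V-ATPase subunits was -0.22. Without CRS 2 and CRS 5 the medians were -0.44 for hydrolases, -0.86 for lipid-associated macrophage genes and -0.64 for the macrophage and dendritic cell markers. The covariate comes from the same bulk libraries and its markers were lower in C10, so that fit cannot separate cell content from level per cell. The part of these cells in the lysosomal result was not tested.

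Folliculin, Flcn, the regulator of Rag GTPases named above, was the 1 gene called of 21 tested among the MiT/TFE factors, folliculin and Rag GTPases. It ran from 37.4 to 47.0 CPM in C10 (median 42.1), from 38.4 to 53.6 in CON (median 48.0) and from 60.1 to 79.7 in CRS (median 64.8). C10 lay below every CRS library but overlapped CON, with a log2 fold change of -0.45 ± 0.08 (SE; edgeR adjusted p = 0.0262), and the difference was -0.20 from CON and -0.70 from CRS on the log2 scale. When CON and CRS were taken as 1 group of 12, it missed the threshold. Values for Fnip2, a folliculin partner, were -0.71 ± 0.17 (edgeR adjusted p = 0.0936), and for Rragd, a Rag GTPase, -0.45 ± 0.13 (edgeR adjusted p = 0.155). Neither factor itself was called, with values of -0.11 ± 0.10 for Tfeb and -0.09 ± 0.09 for Tfe3. Autophagy genes had 0 of 29 called and a median of 0.01, with 17 above and 12 below 0, and that median changed sign in 9 of 31 alternative fits.

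Il33, the epithelial alarmin that starts type 2 inflammation, rose in C10 (chr19:29925114-29960718, plus strand, mm10). It ran from 113 to 133 CPM in C10 (median 127), from 75.7 to 110.4 in CON (median 90.5) and from 70.5 to 85.9 in CRS (median 78.7). The lowest C10 library lay just above the highest CON library, so the groups did not overlap, and the gene had a log2 fold change of 0.57 ± 0.07 (SE; edgeR adjusted p = 0.00252), 0.47 against CON and 0.68 against CRS. Of the 15 type 2 genes tested it was the 1 called: the receptor Il1rl1 had -0.05 ± 0.67, Il4ra -0.13 ± 0.19 and the chitinase-like Chil3 -1.24 ± 0.33. The list's median of -0.11 was -0.21 without CRS 2 and CRS 5 and turned to 0.10 with the macrophage covariate. Il5, Il13, Il25 and Tslp had too few counts to be tested.

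Products of mucous cells and O-glycosylation showed 2 more rises without overlap. Tff2, a trefoil peptide secreted with mucus, ran from 74.6 to 106 CPM in C10 (median 80.5), from 46.6 to 69.7 in CON (median 54.4) and from 34.4 to 53.0 in CRS (median 46.7), with a log2 fold change of 0.75 ± 0.11 (SE; edgeR adjusted p = 0.00601). Galnt15, of the enzyme family that starts mucin-type O-glycans, ran from 37.6 to 49.3 CPM in C10 (median 40.0), from 28.2 to 36.5 in CON (median 30.5) and from 16.6 to 29.1 in CRS (median 26.1), with a log2 fold change of 0.62 ± 0.10 (SE; edgeR adjusted p = 0.0116). Among 14 mucin, trefoil and goblet genes 12 were above 0, with a median of 0.31, but Tff2 alone was called. Muc5ac, the gel-forming mucin of goblet cells, ran from 238 to 1532 CPM in C10 (median 1131), from 361 to 899 in CON (median 397) and from 82.5 to 465 in CRS (median 275). Of the other 12 libraries 10 lay within the C10 range, and it did not pass (1.33 ± 0.35; edgeR adjusted p = 0.122). Muc5b had 0.30 ± 0.21 (edgeR adjusted p = 0.577). Of 17 Galnt genes 8 were above 0 and Galnt15 alone was called. Galnt15 had an edgeR adjusted p of 0.0511 without C10 2.

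**Figure D3:**
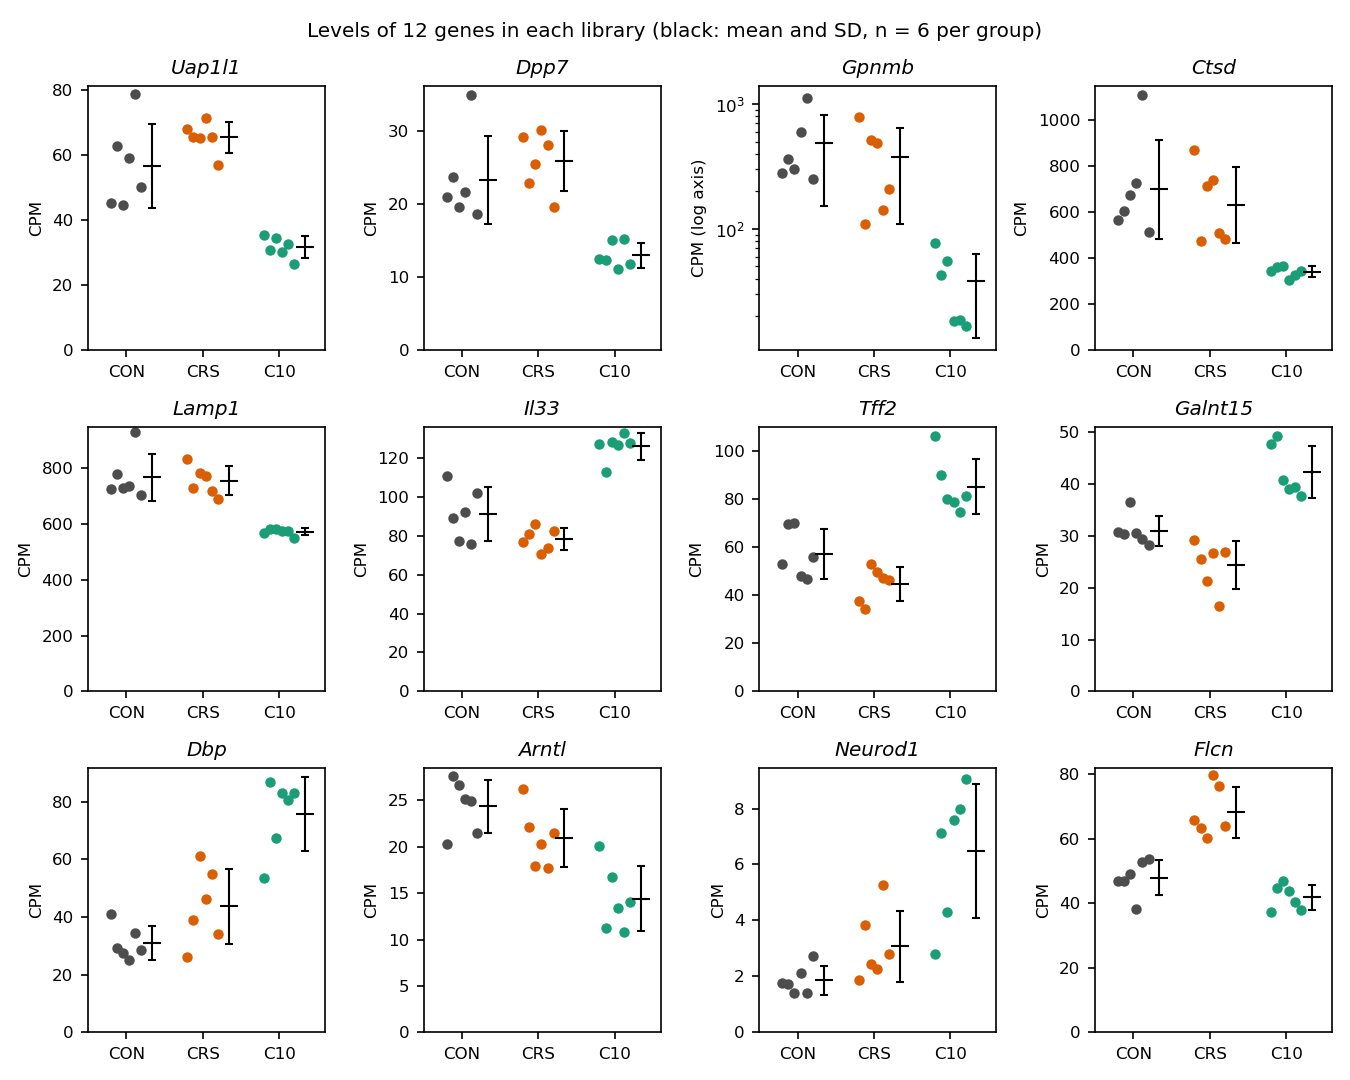
Level of 12 genes in each library (points, CPM on the vertical axis, a log axis for Gpnmb alone) by group (horizontal axis), with the mean and SD of the 6 libraries in black. C10 points lie apart from both other groups for Uap1l1, Dpp7, Gpnmb, Ctsd, Lamp1, Il33, Tff2 and Galnt15, and overlap at least 1 group for Dbp, Arntl, Neurod1 and Flcn.

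Clock genes differed in both directions. In the circadian clock, Arntl (BMAL1) pairs with Clock or Npas2 to switch on the Per, Cry and Nr1d genes and Dbp, whose products feed back on it, so the 2 arms peak at different hours. Of 19 clock genes tested 3 were called higher and 1 lower. Dbp, an output factor that binds the D-box, ran from 53.4 to 86.7 CPM in C10 (median 81.7), from 25.2 to 41.1 in CON (median 28.9) and from 26.2 to 61.1 in CRS (median 42.7). All C10 libraries were above CON, while 2 CRS libraries lay within the C10 range, and the gene had a log2 fold change of 1.04 ± 0.15 (SE; edgeR adjusted p = 0.00601). Its counts could include reads of Sphk2, which overlaps it on the other strand. Per3 ran from 28.4 to 39.5 CPM in C10 (median 36.4), from 18.8 to 27.1 in CON (median 22.3) and from 16.2 to 30.03 in CRS (median 24.1), with a log2 fold change of 0.58 ± 0.11 (SE; edgeR adjusted p = 0.0344), and Per2 ran from 40.3 to 48.3 CPM in C10 (median 44.5), from 24.6 to 35.4 in CON (median 29.9) and from 27.0 to 46.8 in CRS (median 31.4), with a log2 fold change of 0.48 ± 0.10 (SE; edgeR adjusted p = 0.0454). In both 1 of the 12 other libraries reached the C10 range. Arntl ran from 10.9 to 20.0 CPM in C10 (median 13.7), from 20.3 to 27.6 in CON (median 25.0) and from 17.7 to 26.2 in CRS (median 20.9), with 2 of the other 12 within the C10 range and a log2 fold change of -0.65 ± 0.13 (SE; edgeR adjusted p = 0.0334).

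Further members of both arms lay on the matching side without passing: Tef (0.44 ± 0.10; edgeR adjusted p = 0.0573), Nr1d2 (0.39 ± 0.08; edgeR adjusted p = 0.0551) and Cry2 (0.37 ± 0.09; edgeR adjusted p = 0.086) above 0, and Nfil3 (-0.75 ± 0.17; edgeR adjusted p = 0.069) and Npas2 (-0.45 ± 0.13; edgeR adjusted p = 0.165) below. Against CON and against CRS, which share the C10 libraries, Dbp differed by 1.29 and 0.79, Per3 by 0.63 and 0.53, and Arntl by -0.76 and -0.54. Bhlhe41 and Bhlhe40 were 0.43 and 0.03 against CON but -0.40 and -0.37 against CRS. The hour at which tissue was taken is not given, so a difference in hour between groups and an effect of treatment cannot be told apart. Only Dbp stayed called in all 18 leave-one-out fits. Without CON 2, CON 3, CON 4, C10 2, C10 4, C10 5 or C10 6 it was the 1 clock gene called, and 6 were called without CON 1 or without CRS 2. The count was 8 without CRS 2 and CRS 5 and 1 with the replicate block.

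**Figure D4:**
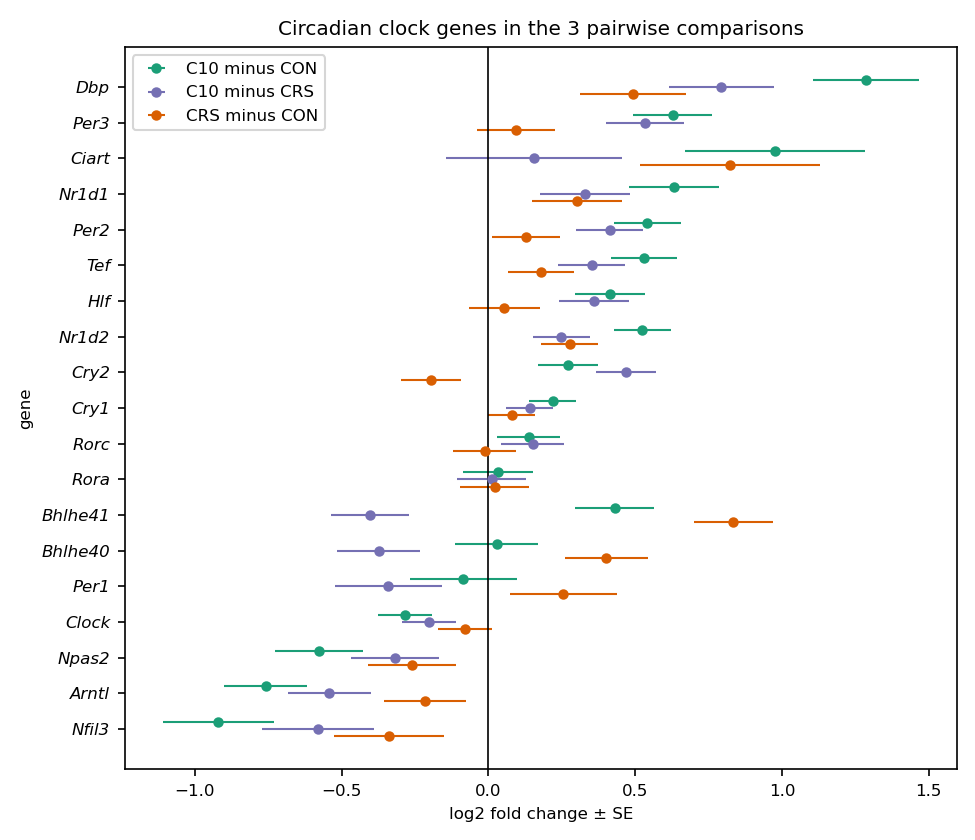
Log2 fold change with SE (horizontal axis) of 19 clock genes (vertical axis) for C10 minus CON, C10 minus CRS and CRS minus CON, which share libraries. Dbp, Per3, Per2 and Tef lie right of 0 and Arntl, Npas2 and Nfil3 left of 0 for C10 against either group, while Bhlhe41 and Bhlhe40 lie left of 0 against CRS only.

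The D-box, searched as TTATGNAA on both strands, was in 3.12% of all windows' genes, in 5 of 13 genes called higher (Il33, Olfr1167, Olfr211, Per3 and Uri1), in 0 of 23 called lower and in 2 of 16 clock genes. These stretches were chosen after the values were seen, and Il33 and Per3 are shown as examples from the 5; capitals mark the D-box, which lies on the opposite strand in Il33.
Il33: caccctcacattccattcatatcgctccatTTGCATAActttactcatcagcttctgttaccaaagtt
Per3: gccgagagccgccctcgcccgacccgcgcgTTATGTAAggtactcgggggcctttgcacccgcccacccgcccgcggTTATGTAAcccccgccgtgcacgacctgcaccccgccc
They lie at chr19:29945675-29945742 (plus strand) and chr4:151044786-151044900 (minus strand), with the motif 85 bases before the start site in Il33 and 205 and 158 bases before it in Per3. The Il33 window belongs to a start site inside the annotated gene, downstream of its first base.

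Genes of newly formed olfactory neurons had higher values in C10. Neurod1, a factor of late neuronal precursors, ran from 2.80 to 9.06 CPM in C10 (median 7.35), from 1.39 to 2.73 in CON (median 1.74) and from 1.86 to 5.26 in CRS (median 2.63). All C10 libraries were above CON, while 3 of the 12 others lay within the C10 range, and the gene had a log2 fold change of 1.43 ± 0.24 (SE; edgeR adjusted p = 0.0163). It was the 1 called of 11 tested, all 11 being above 0 with a median of 0.73, and the precursor factor Neurog1 (1.39 ± 0.33; edgeR adjusted p = 0.0871) did not pass. Gap43, of growing axons, had 0.77 ± 0.25. The summed level of the list was 646 to 1009 CPM in C10, 398 to 748 CPM in CON and 478 to 947 CPM in CRS. Mature olfactory neuron genes had a median of 0.13, with 0 of 14 called and Omp at 0.01 ± 0.22, and that median was -0.11 with the macrophage level as a covariate, where that of the immature list was 0.47. Without CRS 2 and CRS 5 the medians were 0.29 and 0.93. With the mean level of the mature genes as a covariate, the median of the immature list was 0.58 and Neurod1 stayed called; its counts could include reads of Cerkl, which overlaps it on the same strand.

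Of 611 odorant receptor genes tested 3 were called, all higher (0.491%, beside 0.0929% of all genes called higher). A total of 530 were above 0, beside 9423 of all 18291, with a median of 0.39. Olfr1167, Olfr988 and Olfr211 stayed called in 12, 10 and 3 of the 18 leave-one-out fits. Olfr988 ran from 2.58 to 9.49 CPM in C10 (median 3.52), from 0.167 to 3.35 in CON (median 1.26) and from 0.302 to 1.81 in CRS (median 0.465), with a log2 fold change of 2.31 ± 0.44 (SE; edgeR adjusted p = 0.0312). Olfr1167 ran from 2.06 to 6.497 CPM in C10 (median 3.51), from 0.501 to 1.72 in CON (median 1.39) and from 1.63 to 2.29 in CRS (median 1.80), with a log2 fold change of 1.30 ± 0.25 (SE; edgeR adjusted p = 0.0312). Olfr211, at 0.965 to 1.49 CPM in C10 and 0.115 to 0.866 in the others, had a log2 fold change of 1.57 ± 0.31 (SE; edgeR adjusted p = 0.0414) and was the 1 of the 3 without overlap. All are low in counts, since 3 counts are worth 0.163 to 0.193 CPM. The receptor list's median was 0.30 with the mature neuron level as a covariate and 0.15 with limma on log2(FPKM + 1), whose pseudocount shrinks low genes toward 0. With the macrophage covariate it was 0.19.

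Among the other genes called lower, Eln, which encodes elastin, ran from 38.6 to 78.5 CPM in C10 (median 65.7), from 160.5 to 292 in CON (median 184) and from 75.4 to 237 in CRS (median 92.1). C10 lay below CON in full, and 1 CRS library fell within its range, with a log2 fold change of -1.32 ± 0.24 (SE; edgeR adjusted p = 0.0293). Of 20 fibroblast and matrix genes Eln was the 1 called, though 19 were below 0 with a median of -0.48. Col1a1 had -0.81 ± 0.35 (edgeR adjusted p = 0.344). These 20 genes had a median of -0.78 against CON but -0.21 against CRS, and of -0.61 for CRS against CON. Their summed level was 3818 to 7197 CPM in C10, 5889 to 16379.8 CPM in CON and 3879 to 11613 CPM in CRS. Bone and cartilage genes had 0 of 15 called and a median of -0.93, with a summed level of 241 to 622 CPM in C10, 366 to 2167 CPM in CON and 353 to 870.0 CPM in CRS, and osteoclast genes 0 of 9 and -0.17. With the macrophage level as a covariate the medians against the mean of CON and CRS were -0.24 for fibroblast and matrix genes, -0.29 for bone and cartilage and 0.20, of opposite sign, for osteoclasts, which were at -0.34 without CRS 2 and CRS 5. Without that covariate, medians against CON and against CRS were -0.96 and -0.61 for bone and cartilage and -0.42 and -0.03 for osteoclasts. The part that these cell types have in the results was not tested.

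Vegfb, a growth factor of the VEGF family, ran from 21.4 to 24.7 CPM in C10 (median 22.6), from 24.1 to 37.8 in CON (median 27.7) and from 28.9 to 36.4 in CRS (median 33.0), with a log2 fold change of -0.46 ± 0.08 (SE; edgeR adjusted p = 0.028). C10 lay below CRS in full, and CON 3 fell within its range. Vegfb was the 1 called of 10 VEGF ligands, receptors and neuropilins, and Vegfa had -0.34 ± 0.11 (edgeR adjusted p = 0.198). The list's median was -0.25, and 0.01 with the macrophage covariate. It was -0.39 against CON but -0.08 against CRS, and -0.38 for CRS against CON. Hspa1b, an inducible heat shock protein, ran from 26.7 to 45.2 CPM in C10 (median 35.6), from 54.3 to 73.7 in CON (median 64.7) and from 35.9 to 62.0 in CRS (median 43.7), with a log2 fold change of -0.61 ± 0.12 (SE; edgeR adjusted p = 0.0334). C10 lay below CON and overlapped 4 of the CRS libraries. Its near-identical copy Hspa1a had -0.43 ± 0.09 (edgeR adjusted p = 0.0529), and the split of reads between them is uncertain. All 15 heat shock genes were below 0, with a median of -0.11.

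F7, coagulation factor VII, ran from 0.223 to 0.623 CPM in C10 (median 0.278), from 1.44 to 5.62 in CON (median 2.34) and from 0.309 to 4.88 in CRS (median 1.99), with a log2 fold change of -2.89 ± 0.57 (SE; edgeR adjusted p = 0.0371). CRS 2 and CRS 6 lay within the C10 range. Slc25a34, a mitochondrial carrier, ran from 1.34 to 2.59 CPM in C10 (median 1.77), from 3.64 to 8.16 in CON (median 4.85) and from 2.32 to 4.89 in CRS (median 3.83), with a log2 fold change of -1.26 ± 0.21 (SE; edgeR adjusted p = 0.0162). Renbp, an epimerase of N-acetylglucosamine, had a log2 fold change of -1.04 ± 0.20 (SE; edgeR adjusted p = 0.0339), Acaa1b, a peroxisomal thiolase, a log2 fold change of -0.87 ± 0.17 (SE; edgeR adjusted p = 0.0334), and Spon2, a secreted matrix protein, a log2 fold change of -0.71 ± 0.14 (SE; edgeR adjusted p = 0.0334). In each of these 3, 1 of the 12 other libraries reached the C10 values: a CRS library for Renbp and Spon2 and a CON library for Acaa1b. Itgb1bp1, which binds integrin tails (-0.41 ± 0.08), and Slc16a7, a monocarboxylate transporter (-0.59 ± 0.12), were called lower as well.

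The remaining genes called higher were spread over functions. Thegl ran from 5.32 to 7.48 CPM in C10 (median 5.87), from 2.23 to 3.91 in CON (median 3.47) and from 3.26 to 4.89 in CRS (median 4.03), without overlap, and had a log2 fold change of 0.73 ± 0.13 (SE; edgeR adjusted p = 0.0281). Mybl1, a Myb family factor known from male meiosis, ran from 9.07 to 14.1 CPM in C10 (median 10.6), from 3.50 to 9.32 in CON (median 6.47) and from 2.67 to 6.62 in CRS (median 5.55), with 1 other library within the C10 range and a log2 fold change of 0.99 ± 0.19 (SE; edgeR adjusted p = 0.0355). Tenm4, a teneurin of neuronal contacts, had a log2 fold change of 0.59 ± 0.11 (SE; edgeR adjusted p = 0.0293), and Samd10 a log2 fold change of 0.35 ± 0.07 (SE; edgeR adjusted p = 0.0334). Chil6, a chitinase-like protein, was abundant, running from 1086 to 2005 CPM in C10 (median 1393), from 797 to 1045 in CON (median 947) and from 749 to 1354 in CRS (median 906), with 2 others within the C10 range and a log2 fold change of 0.66 ± 0.13 (SE; edgeR adjusted p = 0.0454). Uri1, a chaperone subunit, had the smallest called change (0.23 ± 0.05), and the unnamed transcript 2900052L18Rik had 0.74 ± 0.14.

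Apex1, the gene of the compound's stated target, showed no detectable difference in RNA: it ran from 3.90 to 6.46 CPM in C10 (median 5.04), from 4.94 to 7.74 in CON (median 6.07) and from 5.16 to 6.80 in CRS (median 5.71), with a log2 fold change of -0.24 ± 0.13 (edgeR adjusted p = 0.446). RNA level does not measure the inhibited protein's activity. Of 22 base excision repair genes 0 were called by edgeR, 1 had an unadjusted p under 0.05 and the median was -0.02 (0.01 with the macrophage covariate). Il1b (-0.11 ± 0.48) and Chil4, the chitinase-like protein of type 2 inflammation (1.92 ± 0.97), did not pass and changed sign under some settings. Chil4 ran from 13.3 to 527 CPM in C10 (median 37.6), from 0.176 to 22.0 in CON (median 1.78) and from 17.4 to 2016 in CRS (median 224), with 6 of the other 12 libraries within the C10 range. Ppargc1a, a coactivator of mitochondrial genes, had -0.21 ± 0.10 (edgeR adjusted p = 0.4) and ran from 38.5 to 46.1 CPM in C10 (median 39.4), from 27.5 to 42.8 in CON (median 34.7) and from 49.6 to 78.7 in CRS (median 60.9). C10 overlapped CON and lay below every CRS library.

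**Figure D5:**
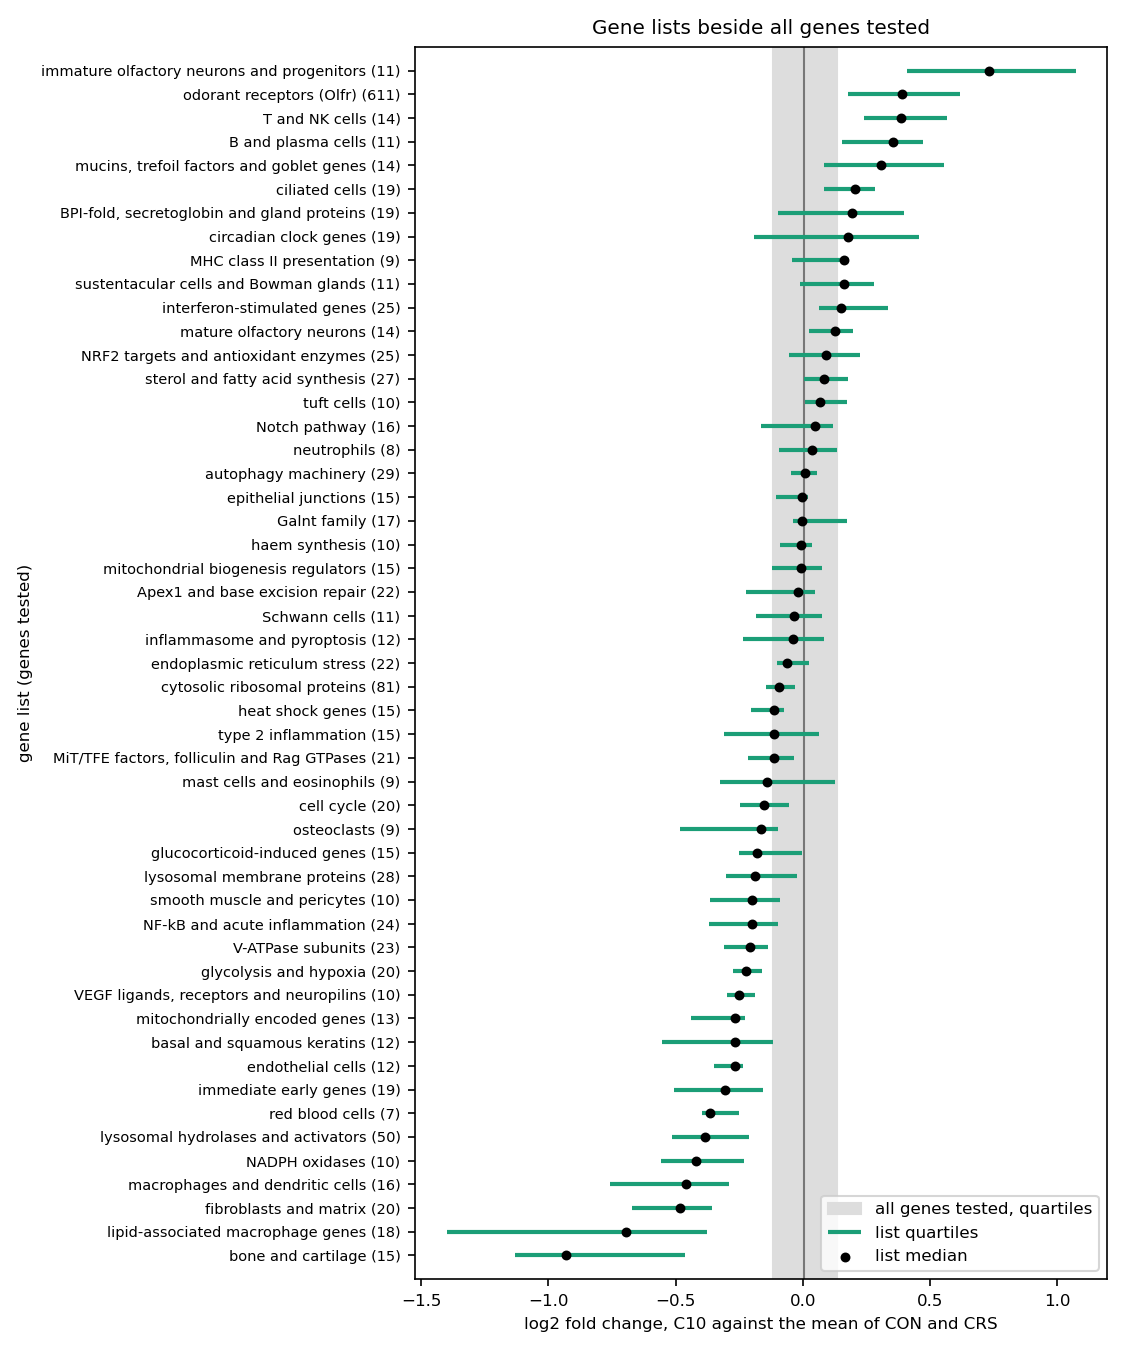
Median log2 fold change (points) and quartiles (bars) of 51 gene lists (vertical axis, genes tested in brackets) for C10 against the mean of CON and CRS (horizontal axis). The grey band holds the quartiles of all genes tested. Immature olfactory neuron genes have the highest median, 0.73, and bone and cartilage genes the lowest, -0.93.

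Across the 49 lists other than those of odorant receptors and cytosolic ribosomal proteins, 25 of the 47 called genes were members of at least 1. These lists were chosen with earlier results of these data known. The share of all tested genes in them was not counted, so the 25 does not measure concentration. The odorant receptor list held 3 called genes and the ribosomal list 0. Among other lists, 0 of 20 glycolysis and hypoxia genes were called, 19 being below 0 (median -0.22), as were 0 of 10 NADPH oxidase genes (8 below, median -0.42) and 0 of 12 endothelial genes (12 below, median -0.27). With the macrophage level as a covariate the NADPH oxidase median turned to 0.14 and the endothelial one was -0.06. Without it, the endothelial median was -0.54 against CON but -0.08 against CRS, and -0.50 for CRS against CON. The NADPH oxidase median was -0.55 against CON and -0.23 against CRS. T and NK cell genes had 13 of 14 above 0 and B and plasma cell genes 10 of 11, with medians of 0.39 and 0.35 and 0 called. These moved to 0.15 and 0.08 without CRS 2 and CRS 5 and to 1.00 and 1.06 with the macrophage covariate, and limma-voom gave -0.005 for B and plasma cells. Mitochondrially encoded genes had opposite medians against the 2 groups: all 13 were below 0 with a median of -0.26, which was 0.08 against CON and -0.65 against CRS. Just inside the threshold lay Per2, Slc16a7 and Slc38a7 (edgeR adjusted p 0.0454, 0.0483 and 0.0492). Just outside it were Plod1, Gaa, the acid alpha-glucosidase of lysosomes, Mfsd12 and Gnpda1, each with an edgeR adjusted p of 0.0504, all lower in C10.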

How the data were processed

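Per the labels' protocols, poly(A) RNA of mouse nasal mucosa was sequenced with the VAHTS Universal V6 kit, and whether strand was kept is not stated. Groups (CON, CRS, C10, with 6 libraries each) came from the labels. The deposited table gives read counts per gene, as whole numbers, on build mm10 per the submitters' processing notes. Not given in the sources used here are aligner, counter and annotation. The authors' deposited FPKM is proportional to count over length within each library, with implied library sizes 0.877 to 1.081 times the totals, and served only as an alternative. Each value column matched 1 library, leaving 0.

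Counts were analysed in R 4.3.3 with edgeR 4.0.16: filterByExpr by group (18291 of 54532 genes kept), TMM factors, and quasi-likelihood F-tests over all 18 libraries with 1 mean per group. C10 was set against the mean of CON and CRS, and the pairwise differences came from the same fit. Two-sided p-values were adjusted by Benjamini and Hochberg's method over all tested genes, with a call at an adjusted p under 0.05. SE is the absolute log2 fold change over the square root of F. The biological coefficient of variation was 0.264. The 3-count floor (0.163 to 0.193 CPM) covers counting error only. The script was tested on simulated data. No library repeated another: over 153 pairs, chi-square divided by its degrees of freedom was at least 13.5.

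Named genes were called genes with at least 1 CPM and all 6 C10 libraries on 1 side of the median of the other 12. The C10 group, not each library, also had to lie on that side of CON and of CRS by log2 fold change. Of these, the 12 largest and the 6 of smallest p per direction were taken, leaving out gene models, chemoreceptors and immune receptor segments. Up to 3 called members per list and 10 fixed genes were added, 41 in all. The members and lists were chosen with earlier results of these data known. Promoter windows come from RefSeq (GRCm38.p6).

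Alternatives were RLE size factors, no filter, a filter of 1 CPM in 6 libraries, a replicate block, CON and CRS as 1 group of 12, the olfactory neuron level as a covariate, a 1.2-fold minimum, leaving out CRS 2 and 5 or each library, DESeq2 1.42.0, limma 3.58.1 (voom with quality weights, or log2 of FPKM plus 1 or 0.1) and, added after the data were seen, the macrophage level as a covariate.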

Additional observations from a re-analysis of the deposited data

Results flagged for a closer look

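Of 41 named genes in 3 groups each (123 sets of 6 libraries), 9 sets held 1 library far from its other 5, by the gap to its nearest neighbour over the range; chance gives about 1 in 20. In C10, Il33 was 112.8 CPM in C10 2 against 127 to 133 in the other 5, still above every CON and CRS library, and F7 was 0.623 CPM in C10 3 against 0.223 to 0.336. In CON, library CON 5 stood high for Lamp1 (928 against 704 to 778 CPM) and Atp6v1c1 (69.1 against 58.3 to 61.9 CPM) and low for Tenm4 (46.8 against 64.7 to 76.0 CPM), and CON 3 stood high for Galnt15 (36.5 against 28.2 to 30.8 CPM). In CRS, Cd63 was 452 CPM in CRS 4 against 286 to 335, Olfr988 was 1.81 CPM in CRS 6 against 0.302 to 0.680, and Per2 was 46.8 CPM in CRS 5 against 27.0 to 32.6.

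For Ppargc1a, the difference of C10 from CON and that of C10 from CRS were not the same: they differed by 0.83 ± 0.12 on the log2 scale (SE; edgeR adjusted p = 0.018), which is the difference of CRS from CON. Causes of these values were not tested.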

How the results depend on the processing

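All called genes kept their direction in the 31 alternative fits (30 for Olfr211, which the 1 CPM filter removed), and Uap1l1 and Gpnmb passed in all of them. The counts moved more, here as higher, lower and called beyond both groups against 17, 30 and 47. They were 316, 229 and 509 with the olfactory neuron level as a covariate, 211, 153 and 338 with the macrophage level, 129, 149 and 271 without CRS 2 and 5, 138, 205 and 318 with DESeq2, and 158, 132 and 270 with limma-voom (sample quality weights). On log2(FPKM + 1), limma called 27 higher. A 1.2-fold minimum left 0 higher and 2 lower (Uap1l1 and Gpnmb), and 783 genes at an unadjusted p under 0.05. Leaving out 1 library gave 3 to 53 higher, 4 to 74 lower and 8 to 123 beyond both, lowest without C10 2 or C10 4 and highest without CRS 2. The share of calls that were higher was 36.2%, against 58.0% with either covariate and 54.5% with limma-voom. No filter called 12 and 23.

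Replicate numbers showed no clear pairing of libraries: 18 same-numbered pairs correlated at -0.57 to 0.52 (median -0.02), 8 of them above 0.1. Of the 18 libraries, 5 were closest to their own number. A smaller effect shared by replicate number was not tested. With the replicate block, 5 were higher, 11 lower and 16 beyond both.

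Among single genes, Chil4 and Il1b, neither called, reversed. Of the 51 gene lists, 23 had a median that changed sign in at least 1 alternative fit. Chil4 was -0.42 with CON and CRS as 1 group of 12. Il1b was 0.13 with the replicate block, 0.29 and 0.68 with the olfactory and macrophage levels, 0.25 with limma-voom, 0.18 and 0.22 on FPKM plus 1 and 0.1, and -0.31 (without C10 1) to 0.25 (without CRS 1) with 1 library left out, being above 0 without CON 3, CRS 1 or C10 4. The cause of these changes was not tested. Depth limits F7, which had 4 to 10 counts in C10, near the 3-count floor. Among the called receptors some untreated libraries were near that floor, with as few as 2 counts for Olfr211 and 3 for Olfr988. In C10, Olfr211 had 16 to 26 counts.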
